A study of Mus musculus with 12 samples.

Results

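The nasal and maxillary prominences of Neo/Null mouse embryos, which carry reduced *Tfap2a* function, were compared with each other at E10.5 to describe how far the 2 regions of the mutant face differ in gene expression. The comparison set 3 arrays of Neo/Null nasal tissue against 3 arrays of Neo/Null maxillary tissue, which are 6 of the 12 arrays of the study. A probe set entered when the authors' detection call was present, and not absent or variable, in at least 1 of these 2 groups, and control probe sets were left out. This gave 23732 of 45037 probe sets and 11181 named genes. When a gene had several probe sets, it was described by the tested one with the highest mean over the 6 Neo/Null arrays.

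Neo/Null embryos carry a *Tfap2a* allele with a neo cassette inside the part of the gene that encodes the DNA-binding domain, which lowers its function, over a null allele. Neo/Wt embryos, the controls, carry the same Neo allele over a wild-type allele, so the hypomorphic allele was common to every array. The sample labels name the genotypes aflox/null and aflox/wt, the age as E10.5, and the tissues frontal nasal and maxilla. The embryos were of an outbred Black Swiss background, from Neo females and males heterozygous for the null allele. Neo/Null embryos later develop bilateral cleft lip and palate and some have exencephaly, and the state of the neural tube in the embryos pooled here was not given. RNA was taken from pooled tissue, in 3 independent pools per group, and the number of embryos in a pool was not given. The p-values therefore measure the spread between pools. Each pool contains mesenchyme, epithelium, nerves and vessels, and fewer cells of a type cannot be told apart from less RNA per cell.

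The facial prominences are swellings of cranial neural crest mesenchyme under surface ectoderm. The nasal prominences surround the nasal pit, where the olfactory placode invaginates, and express genes of the Alx, Pax3 and Pax7 classes, whereas the maxillary prominence derives from the first pharyngeal arch, lies beside the mouth, and expresses Dlx, Lhx and Barx genes of oral mesenchyme. The prominences fuse to close the upper lip. *Tfap2a* encodes AP-2α, a transcription factor of the surface ectoderm and the neural crest that binds a palindromic GC-rich motif.

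Values are log2 signals on an array, and a difference is the mean of the nasal pools minus the mean of the maxillary pools, so that a positive value means more signal in the nasal prominence. A difference was called when limma's p-value, after Benjamini-Hochberg adjustment across all 23732 tested probe sets, was below 0.05. Of the 11181 genes, 904 (8.09%) were called higher in the nasal prominence and 494 (4.42%) higher in the maxilla, together 12.5%, and 169 (1.51%) and 88 (0.787%) also differed more than 2-fold. By probe set the calls were 1415 (5.96%) and 969 (4.08%), and these counts rested in part on single arrays, with 918 nasal calls without Neo/Null maxilla replicate 2 and 638 maxillary calls without Neo/Null maxilla replicate 3. With each array centred on its median they were 1343 nasal and 1323 maxillary, so the excess of nasal calls depended on the scaling. The median log2 difference over all genes was 0.02, and the median size among the 1398 called genes was 0.51. The 3 nasal and 3 maxillary values of a gene did not overlap for 3745 genes (33.5%). The array medians lay between 5.13 and 5.19, replicate arrays correlated at 0.9958 to 0.9977 across probe sets, and 0 pairs of arrays were identical. On the first principal component, which held 58% of the variance of the 12 arrays, the Neo/Null nasal pools lay at 22.7 to 25.5 and the Neo/Null maxillary pools at -25.6 to -23.7.

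The filter on detection calls favoured differences in 1 direction among genes detected in a single prominence. Of 1125 probe sets called present in the nasal group alone, 258 were called higher there and 4 lower, and of 1309 called present in the maxillary group alone, 182 were higher there and 4 lower. Among the 21298 called present in both groups, 1153 were higher in the nasal prominence and 783 in the maxilla. For 108 of the called genes, the dimmer prominence was called absent, which leaves only a lower bound for the fold. Such bounds are written as "at least" and use, for each array, the larger of the gene's own signal and the lowest signal of any probe set called present. For the genes so written below, their own signal was the larger, so the bound equals the measured mean fold. It allows for an undetected dim signal and not for the spread between pools or probe sets. Other probe sets lay on either side of it, with log2 differences of 2.86 against 4.54 for *Pax7* and 1.59 against 1.32 for *Dcc*.

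The 12 genes with the largest nasal differences in Neo/Null embryos included the transcription factors *Pax7*, *Fezf1*, *Sp8*, *Nr2e1*, *Six6* and *Zic1*. These 12, and the 12 with the largest maxillary differences, were chosen among called genes whose nasal and maxillary pools did not overlap, so the separation of their pools is a matter of that choice. *Pax7*, a paired-box factor of the cranial neural crest, had signals of 8.54, 8.53 and 8.40 in the nasal pools and 3.67, 4.0 and 4.18 in the maxillary pools. *Pax7* was called absent in the maxilla. It was at least 23.3-fold higher in the nasal prominence (log2 difference 4.54 ± 0.18, SE, limma adjusted p = 3.71e-08). A second *Pax7* probe set gave 2.86. *Fezf1*, a zinc finger repressor needed for the olfactory epithelium, had signals of 7.77, 7.67 and 7.70 against 4.02, 4.14 and 4.12, with an absent call in the maxilla, and was at least 12.3-fold higher in the nasal pools (3.62 ± 0.12, adjusted p = 1.68e-08). *Sp8*, a zinc finger factor of the nasal and limb ectoderm, had 7.85, 7.43 and 7.66 against 4.39, 4.14 and 4.14, a difference of 10.8-fold (adjusted p = 1.09e-07). *Nr2e1*, an orphan nuclear receptor of neural progenitors, had 6.25, 6.03 and 6.52 against 2.71, 2.74 and 2.88 and was at least 11.2-fold higher (log2 3.49, adjusted p = 1.32e-07), and its second probe set gave 0.99. *Six6*, a homeobox factor of the retina and pituitary, spread more between pools, with 7.72, 6.99 and 7.89 in the nasal tissue and 4.11, 4.14 and 4.48 in the maxilla (9.83-fold, adjusted p = 0.000139).

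*Zic1*, a zinc finger factor of the neural plate border and the dorsal neural tube, had signals of 6.28, 6.13 and 6.23 in the nasal pools and 2.89, 3.36 and 3.25 in the maxillary pools, a difference of 8.27-fold (log2 3.05 ± 0.20, adjusted p = 2.35e-06). Its second probe set gave 1.79. *Cxcl13*, a chemokine best known for attracting B cells, was 8.85-fold higher in the nasal tissue, with 8.53, 8.51 and 8.33 against 5.03, 5.32 and 5.59. The second *Cxcl13* probe set had the widest nasal difference of the tested probe sets, with means of 9.13 in the nasal and 3.45 in the maxillary pools (log2 difference 5.68). *Dlx6os1*, a long non-coding RNA that overlaps *Dlx6*, had 6.53, 6.52 and 6.32 against 3.18, 3.20 and 3.11 (9.83-fold). The other genes among the 12 with the largest nasal differences were *Sgpp2*, a sphingosine 1-phosphate phosphatase (13.4-fold), *Cldn9*, a tight junction claudin (11-fold, log2 3.46, with 1.79 for a second probe set), *Pcp4*, a calmodulin-binding peptide (at least 11.2-fold), and *Htr3b*, a subunit of the serotonin-gated ion channel (at least 9.78-fold). The adjusted p of these 4 lay between 2.54e-08 and 5.28e-05. *Six6*, *Dlx6os1*, *Cxcl13* and *Zic1* were called variable in the maxilla, neither present nor absent, so their dim signals and folds are less certain.

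The 12 genes with the largest maxillary differences included the homeobox genes *Lhx8*, *Dlx1*, *Barx1* and *Lhx6* and the cofactor *Vgll2*. *Lhx8*, a LIM homeobox factor required for the palate, had signals of 5.09, 4.72 and 4.01 in the nasal pools and 10.66, 10.57 and 10.56 in the maxillary pools. The maxillary pools were nearly equal while the nasal pools spread over more than 1 log2 unit, and the mean difference was 63.5-fold (log2 -5.99 ± 0.33, adjusted p = 5.66e-07). *Mab21l1*, a gene of the male-abnormal-21 family known for eye and craniofacial development, had 5.16, 4.91 and 4.45 against 9.76, 9.83 and 9.63 and was 29.9-fold higher in the maxilla (adjusted p = 1.84e-08). *Dlx1*, a distal-less homeobox factor, had 5.25, 5.39 and 4.94 against 9.43, 9.35 and 9.48, and its difference of 18.7-fold had the smallest adjusted p of the 24 genes, 5.24e-09. *Barx1*, a homeobox factor of oral and tooth mesenchyme, was 16.9-fold higher in the maxilla, with 5.08, 5.17 and 5.06 against 9.25, 9.28 and 9.02. *Lhx8*, *Mab21l1* and *Dlx1* were called variable in the nasal tissue, so their folds are less certain than that of *Barx1*, which was called present in both regions.

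*Vgll2*, a cofactor of TEAD transcription factors, was called absent in the nasal tissue at 5.62, 5.63 and 5.61 and reached 9.86, 9.16 and 9.71 in the maxilla, so that it was at least 15.5-fold higher there (log2 -3.96 ± 0.33, adjusted p = 1.43e-05). *Lhx6*, which acts with *Lhx8* in the first arch, was also called absent in the nasal tissue and was at least 10.8-fold higher in the maxilla, at 4.0, 4.64 and 4.45 against 8.01, 7.79 and 7.57 (log2 -3.43, with -1.68 for a second probe set). *Postn*, a matricellular protein of periosteum and cushions, had 5.63, 5.77 and 5.21 against 9.27, 9.08 and 9.15 (12.4-fold, adjusted p = 1.68e-08). *Mab21l2* was 12.6-fold higher in the maxilla and *Lrba*, a vesicle-associated anchor protein, 6.41-fold, and in the mouse assembly *Mab21l2* lies inside the *Lrba* gene. *Foxl2os*, a non-coding RNA that begins next to *Foxl2*, was 8.18-fold higher. The other genes among the 12 were *Nefm*, the medium neurofilament (10.7-fold, adjusted p = 0.00522), and *Ppp1r17*, a phosphatase inhibitor (6.89-fold, adjusted p = 0.00832). *Nefm* had 9.60, 9.76 and 8.52 in the maxillary pools and 5.88, 6.20 and 5.54 in the nasal pools, and *Ppp1r17* had 7.46, 7.87 and 7.29 and 4.84, 4.88 and 4.54. In the same contrast of Neo/Wt, described below, *Ppp1r17* was not called (limma adjusted p = 0.1). It had 7.06, 7.0 and 4.29 in the Neo/Wt maxillary and 4.51, 4.69 and 4.13 in the Neo/Wt nasal pools. *Nefm* is also a neuron marker. The summed signal of the neuron markers given below, which includes *Nefm*, was higher in these maxillary pools, and this was not tested as a part of its difference.

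**Figure D1:**
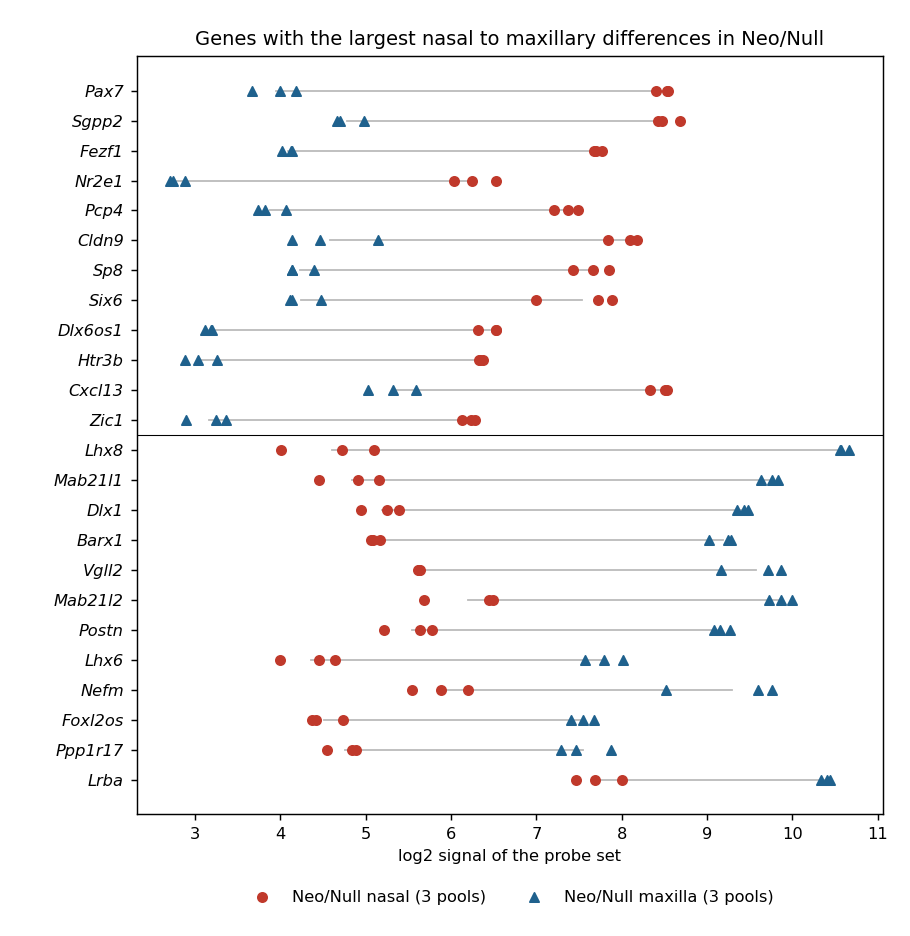
Log2 signal of the 12 genes with the largest nasal and the 12 with the largest maxillary difference, one point for each of the 6 Neo/Null pools. The genes were chosen to have no overlap between the 3 nasal and the 3 maxillary points, and they run from *Pax7* at 8.40 to 8.54 against 3.67 to 4.18 to *Lhx8* at 4.01 to 5.09 against 10.56 to 10.66.

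Because the embryos carry reduced AP-2α function, the 250 bases before the start of the named genes were searched for its palindrome, GCCNNNGGC, which reads the same on both strands. The genes searched were the 24 above, the AP-2 genes, and the 5 that ranked first for a gap between the genotypes. Promoters are from RefSeq, assembly GRCm38.p6, and 26 of 31 genes had an entry, with 33 promoters. The motif stood in 6 of the 33. It stood in 22.1% of the 906 promoters of genes called higher in the nasal prominence, 19.7% of the 492 of genes called higher in the maxilla, 20.7% of the 11647 of tested genes and 13.7% of all 32851, so the called genes carried it about as often as the tested genes. Below are the gene with the largest measured difference in each direction by the probe set used, *Pax7* and *Lhx8*, in which these letters were not found in this window, and a further gene of each direction that holds the motif, *Zic1* at position -157 and *Vgll2* at position -19 from the start. The sequences read 5′ to 3′ on the strand of the gene, with the motif in capitals. The window of *Pax7* is chr4:139832969-139833218, that of *Lhx8* chr3:154330561-154330810 and that of *Zic1* chr9:91365769-91366018, all on the minus strand, and that of *Vgll2* chr10:52022252-52022501 on the plus strand.
Pax7: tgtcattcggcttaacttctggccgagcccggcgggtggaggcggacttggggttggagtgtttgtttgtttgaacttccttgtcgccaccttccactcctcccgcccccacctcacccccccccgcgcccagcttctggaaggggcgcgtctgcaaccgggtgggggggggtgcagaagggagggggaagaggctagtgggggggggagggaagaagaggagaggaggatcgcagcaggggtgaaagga
Lhx8: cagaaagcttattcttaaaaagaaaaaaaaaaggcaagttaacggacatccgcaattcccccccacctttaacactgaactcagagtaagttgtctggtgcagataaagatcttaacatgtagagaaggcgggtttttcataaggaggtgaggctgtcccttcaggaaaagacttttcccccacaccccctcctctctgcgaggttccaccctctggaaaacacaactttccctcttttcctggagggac
Zic1: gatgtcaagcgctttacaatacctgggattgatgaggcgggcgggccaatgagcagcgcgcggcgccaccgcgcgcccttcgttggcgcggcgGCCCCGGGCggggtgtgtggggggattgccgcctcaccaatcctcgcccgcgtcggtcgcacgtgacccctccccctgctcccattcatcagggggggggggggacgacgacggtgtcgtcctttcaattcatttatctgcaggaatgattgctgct
Vgll2: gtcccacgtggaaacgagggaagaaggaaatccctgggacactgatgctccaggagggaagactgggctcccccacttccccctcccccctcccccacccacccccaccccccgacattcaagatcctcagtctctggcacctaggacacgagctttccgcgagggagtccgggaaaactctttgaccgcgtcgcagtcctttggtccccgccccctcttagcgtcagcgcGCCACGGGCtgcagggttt

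To ask how much of the regional pattern of the control face was found in the mutant, the same contrast was fitted in Neo/Wt. It set the 3 Neo/Wt nasal against the 3 Neo/Wt maxillary arrays, so the differences share no array with the Neo/Null comparison. The calls of both genotypes used a common estimate of the spread from all arrays. They are therefore not independent, and the shares called in both genotypes were not corrected for this. Of 1949 probe sets called in Neo/Wt, 1921 (98.6%) differed in the same direction in Neo/Null and 1399 (71.8%) were called there too. All 322 that were called in Neo/Wt with a difference of more than 2-fold kept their direction, 317 of them (98.4%) with a call. The median ratio of the Neo/Null to the Neo/Wt difference was 0.958 over the 1949 and 1.06 over the 322. The Neo/Wt calls were 964 (4.06%) nasal and 985 (4.15%) maxillary, of which 782 (81.1%) and 617 (62.6%) were calls in Neo/Null, with median ratios of 1.03 and 0.857. These probe sets had to be called present in a Neo/Null group, so regional genes of Neo/Wt that were detected in neither Neo/Null prominence were left out. With presence in any of the 4 groups as the filter, Neo/Wt had 1983 calls, 1953 of them in the same direction in Neo/Null and 1408 called there. Choosing probe sets for a large difference in 1 genotype by itself lowers such a ratio in the other. Read the other way, 2322 of 2384 Neo/Null calls (97.4%) had the same direction in Neo/Wt and 1399 (58.7%) were called there. Across all 23732 probe sets the differences of the 2 genotypes correlated at 0.88, as a description in which genes are not independent.

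**Figure D2:**
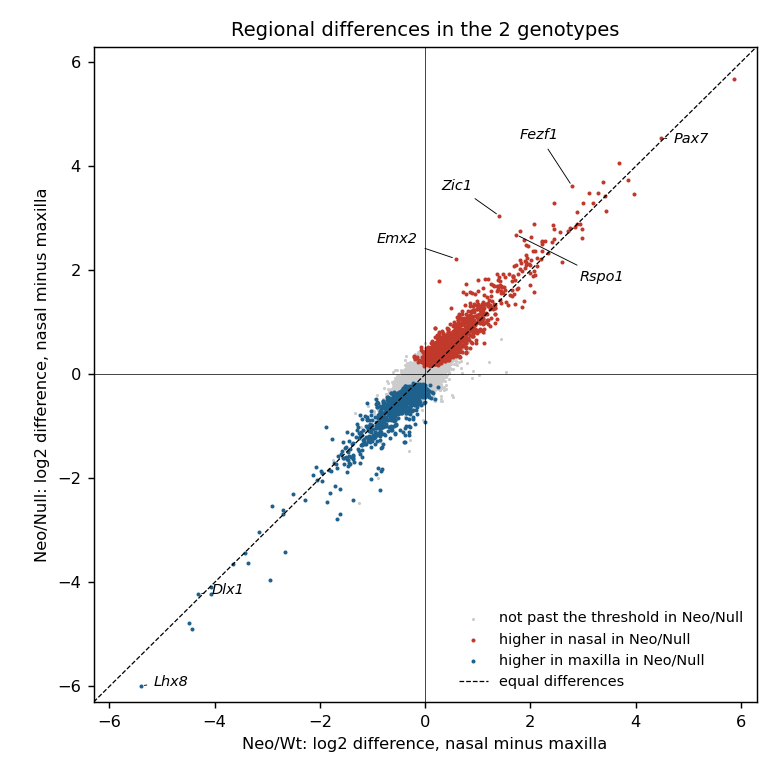
Log2 difference, nasal minus maxilla, of each of the 23732 tested probe sets in Neo/Wt (horizontal axis) and Neo/Null (vertical axis), with the line of equal differences dashed. Most wide differences lie near the line, and *Zic1*, *Emx2*, *Rspo1* and *Fezf1* lie above it.

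The genes that define each region in Neo/Wt, taken as 129 genes called there with more than 2-fold nasal signal and 68 with more than 2-fold maxillary signal, were then averaged on each array. The 129 nasal genes had means of 7.27, 7.18 and 7.15 in the Neo/Null nasal pools and 5.36, 5.30 and 5.37 in the Neo/Null maxillary pools. The 68 maxillary genes had means of 5.91, 5.89 and 5.66 in the Neo/Null nasal pools and 7.71, 7.70 and 7.58 in the Neo/Null maxillary pools. No Neo/Null pool lay between the regions on either score. The mean of the nasal genes minus that of the maxillary genes was 1.29 to 1.49 in Neo/Null nasal and -2.40 to -2.21 in Neo/Null maxillary tissue. For Neo/Wt, whose arrays chose the genes, it was 1.16 to 1.43 and -2.42 to -2.10.

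**Figure D3:**
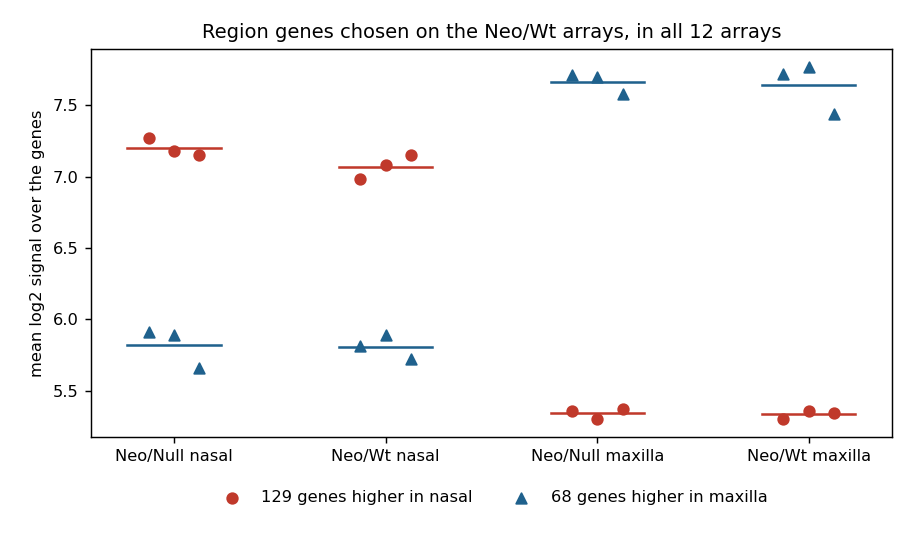
Mean log2 signal of the 129 genes with nasal and the 68 genes with maxillary signal in Neo/Wt, one point for each of the 12 pools and a line for each group mean. Neo/Null nasal pools lie at 7.15 to 7.27 for the nasal genes and Neo/Null maxillary pools at 5.30 to 5.37, each beside the Neo/Wt pools of the same prominence.

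No probe set passed the adjusted threshold for a difference between the 2 regional contrasts in limma (0 of 23732, 0.00%), and 1146 (4.83%) had an unadjusted p below 0.05. A single probe set was called in both genotypes with opposite directions, that of *Rnf225*, a RING finger gene, with small differences of -0.23 in Neo/Null (adjusted p = 0.0232) and 0.25 in Neo/Wt (adjusted p = 0.0201). The Neo/Null call of *Rnf225* was lost in 10 of the alternative settings, with adjusted p between 0.0503 and 0.143. Of the 5 genes that ranked first by p for the gap between the contrasts, 3 had wide regional differences in Neo/Null. *Emx2*, a homeobox factor of the forebrain and olfactory epithelium, had 6.80, 6.79 and 6.65 against 4.60, 4.75 and 4.23 in Neo/Null and 6.40, 6.60 and 6.26 against 5.75, 6.34 and 5.41 in Neo/Wt. The Neo/Null maxillary pools were thus the lowest of the 4 groups, and the regional difference was 2.22 ± 0.20 in Neo/Null and 0.58 in Neo/Wt, a gap of 1.64 (95% interval 1.02 to 2.26, unadjusted p = 0.000111, adjusted p = 0.64).

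*Zic1* differed from *Emx2* in which group set it apart. In Neo/Wt it had 4.0, 4.14 and 4.77 in the nasal and 3.21, 2.58 and 2.88 in the maxillary pools, so that the 3 Neo/Null nasal pools were the highest of the 12, and the gap between the contrasts was 1.64 (95% interval 1.01 to 2.26, adjusted p = 0.64). *Zic1* passed the adjusted threshold in some alternative settings, with adjusted p = 0.0101 after an offset of 32 on the linear signal, and its second probe set did in others (0.0399 with a trended robust prior, 0.0354 with array weights and 0.00513 without Neo/Null nasal replicate 3). *Rspo1*, a secreted activator of Wnt signaling, had 6.50, 6.59 and 6.88 against 3.83, 4.29 and 3.79 in Neo/Null and 6.64, 6.63 and 6.74 against 5.07, 4.95 and 4.81 in Neo/Wt, with the low values in the Neo/Null maxilla and a gap of 0.96 (0.55 to 1.38, adjusted p = 0.64). The last of the 5, *Vstm2b*, an immunoglobulin-domain protein, had differences of 0.35 and -0.20. *Fezf1* also had a wider difference in Neo/Null than in Neo/Wt (3.62 against 2.79), and it passed for the gap without Neo/Wt nasal replicate 2 (adjusted p = 0.0343) and not with all arrays.

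The genes of known roles and the markers of cell types were followed in lists, drawn up with earlier results of these data known. Of all genes tested, 8.09% were nasal calls and 4.42% maxillary calls, and each count below is to be read beside these shares. A count at about these shares is not a result about its list. Over all 32 lists, 90 distinct genes were called higher in the Neo/Null nasal prominence and 80 in the maxilla. All 170 had the same direction in Neo/Wt and 149 were called there. Of all 1398 genes called in Neo/Null, 1370 (98%) had the same direction in Neo/Wt and 850 (60.8%) were called there. The shared direction of the listed genes is thus near that of any called gene. A larger share of the listed genes was called in Neo/Wt, in lists drawn up with earlier results known, and this was not tested. Single genes were followed in 24 alternative settings, all with the same probe set for a gene, so the mean over its probe sets was not among them. In these 24 settings, 75 of the 90 and 58 of the 80 kept their call in every setting in which they were tested. The genes named below kept their call in each of them unless a value is given.

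**Figure D4:**
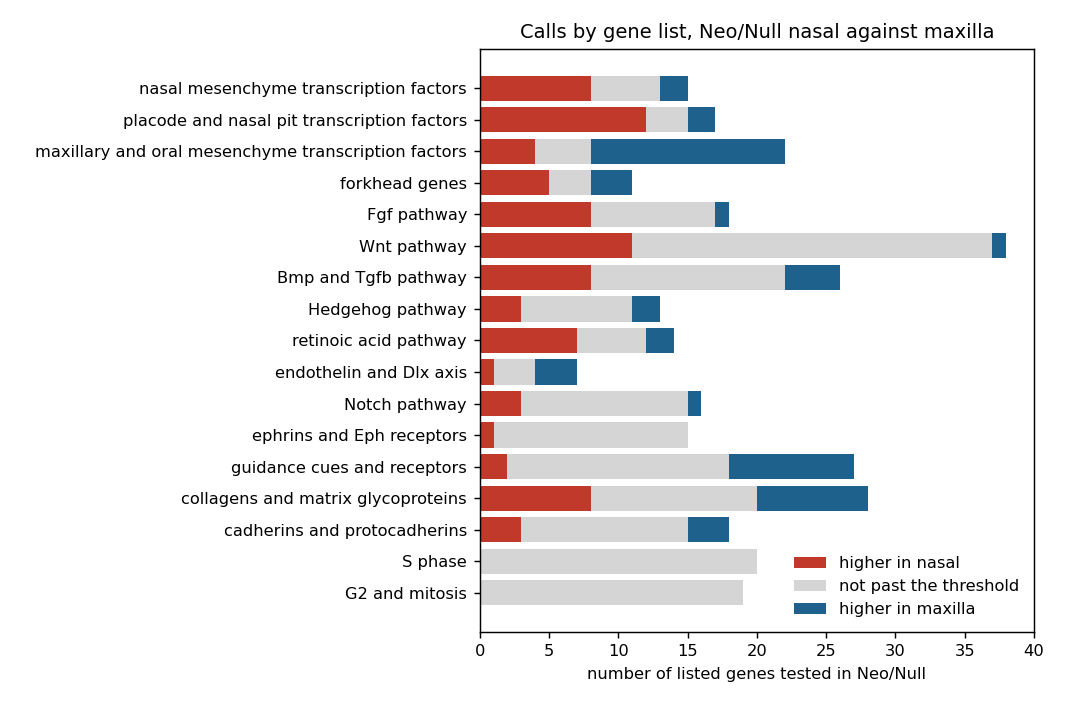
Number of tested genes of 17 lists that were called higher in the Neo/Null nasal prominence, higher in the maxilla, or not called. Among placode and nasal pit factors 12 of 17 were called nasal and 2 maxillary, and among maxillary and oral factors 4 of 22 and 14.

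Of 15 tested transcription factors of nasal mesenchyme, out of 17 listed, 8 were higher in the nasal prominence and 2 in the maxilla, where all genes gave 8.09% and 4.42%, and the median log2 difference was 0.76 against 0.02 over all genes. In Neo/Wt the counts were also 8 and 2, with a median of 0.43. *Alx1*, an aristaless-type factor whose loss disrupts the frontonasal skeleton, had 10.98, 11.09 and 10.69 in the nasal and 8.97, 9.06 and 8.91 in the maxillary pools. The pools did not overlap, and *Alx1* was 3.83-fold higher in the nasal tissue (log2 1.94 ± 0.15, adjusted p = 7.38e-06). *Six2*, a homeobox factor of mesenchymal progenitors, had 9.65, 9.74 and 9.53 against 7.61, 7.52 and 7.08 (4.71-fold), and *Pax3*, the paired-box partner of *Pax7*, had 8.51, 8.45 and 8.46 against 6.10, 6.28 and 5.55 (5.64-fold). Both were without overlap between the prominences. *Cited1*, a transcriptional coregulator, was also called, at 1.69-fold. *Nr2f1*, an orphan nuclear receptor, was the stable call in the other direction, with 10.02 ± 0.20 (SD, n = 3) against 11.01 ± 0.090 (log2 -0.99 ± 0.12, adjusted p = 0.000193). *Msx1*, a homeobox factor of all facial mesenchyme, was not called, at 0.48 (95% interval 0.022 to 0.94, adjusted p = 0.192), nor was *Msx2* at -0.40 (-0.92 to 0.12). Same-numbered pools deviated together, and with the replicate number as a block *Msx1* was called higher in the nasal prominence (adjusted p = 0.00143 on 12 arrays and 0.0114 on the 6 Neo/Null arrays) and *Msx2* higher in the maxilla on 12 arrays (0.0418).

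Of 17 tested factors of the cranial placodes and the nasal pit, out of 21 listed, 12 were higher in the nasal prominence and 2 in the maxilla, with a median of 1.16. In Neo/Wt the counts were 9 and 3 and the median 0.71. *Pax6*, the paired-box factor of the lens and olfactory placodes, was called absent in the maxilla at 4.71, 4.34 and 5.44 and had 7.59, 7.50 and 7.63 in the nasal pools, at least 6.69-fold higher (log2 2.74 ± 0.31, adjusted p = 0.000144, and 2.15 with another probe set). *Sox2*, a factor of neurogenic epithelium, was detected in both regions and still apart, at 10.09, 10.03 and 10.29 against 8.97, 9.02 and 8.93 (2.24-fold). *Sox3*, its close relative, had a log2 difference of 1.70 and *Otx2*, a homeobox factor of the anterior head, 2.62. *Lhx2*, a LIM homeobox factor of olfactory neurons and forebrain, had 1.35, *Eya2*, a coactivator of Six-family factors, 1.42, and *Dmrta1*, a doublesex-related factor, 1.79. *Ebf2*, a helix-loop-helix factor of neurons and mesenchyme, went the other way, with 6.78, 6.77 and 6.51 in the nasal and 8.38, 8.31 and 8.49 in the maxillary pools (log2 -1.71 ± 0.15, adjusted p = 2.19e-05). The maxillary pools were the higher for *Ebf2* without overlap. The 6 tested forebrain markers of 12 listed, given below, were higher in the same nasal pools, with a summed linear signal of 1040 to 1110 against 259 to 333. Their part in these results and in those of *Fezf1*, *Nr2e1*, *Six6* and *Zic1* was not tested.

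Maxillary and oral mesenchyme factors had the opposite balance, with 14 of 22 tested genes, out of 28 listed, higher in the maxilla, 4 higher in the nasal prominence and a median of -0.97. In Neo/Wt 13 were higher in the maxilla and 4 in the nasal prominence, with a median of -1.04. Beyond *Lhx8*, *Lhx6*, *Dlx1*, *Barx1* and the Mab21l genes described above, *Prrx1*, a paired-related factor of limb and face mesenchyme, had 9.78, 10.01 and 9.77 in the nasal and 11.52, 11.49 and 11.40 in the maxillary pools. It was abundant in both regions and 3.06-fold higher in the maxilla without overlap (log2 -1.61 ± 0.086, adjusted p = 4.62e-07), and 4 further *Prrx1* probe sets gave -1.44 to -1.66. Its paralogue *Prrx2* had -0.77. *Meis2*, a homeobox cofactor, had -1.17, and *Osr1* and *Osr2*, odd-skipped factors of the palate and tooth field, had -1.94 and -1.24. *Shox2*, a homeobox factor of the anterior palate, was among the genes of this list that were higher in nasal tissue, with 8.95, 9.16 and 8.72 against 6.82, 7.25 and 6.52 (4.24-fold, adjusted p = 0.00295), and a second probe set gave 1.74. *Gsc*, the goosecoid homeobox factor, was called absent in the maxilla and was at least 3.25-fold higher in the nasal prominence, at 6.18, 6.36 and 5.47 against 4.36, 4.34 and 4.21.

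The Dlx genes differed in direction. *Dlx1* and *Dlx2*, which are neighbours in the genome, were both higher in the maxilla, *Dlx2* with 6.52, 6.22 and 5.54 in the nasal and 8.61, 8.39 and 8.51 in the maxillary pools (5.31-fold, log2 -2.41 ± 0.21, adjusted p = 2.15e-05). *Dlx5* was higher in the nasal tissue, with 8.01, 7.86 and 8.19 against 6.60, 6.21 and 6.51 and no overlap (2.99-fold, adjusted p = 1.95e-05). The *Dlx5* difference was 1.58 in Neo/Null and 0.85 in Neo/Wt, with a gap of 0.73 (95% interval 0.31 to 1.15, adjusted p = 0.984). *Dlx6*, the neighbour of *Dlx5*, was called present in neither region and was not tested, at 6.58, 6.02 and 6.58 in the nasal and 5.04, 4.93 and 5.31 in the maxillary pools. *Hand1* and *Hand2*, factors of the mandibular arch, were called absent in both prominences. Of 10 listed Hox genes, which are silent in the first arch and frontonasal crest, 8 had a probe set and 0 were called present in either group.

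Forkhead genes were divided, with 5 of 11 tested genes, out of 16 listed, higher in the nasal prominence, 3 higher in the maxilla and a median of 0.09. *Foxl2*, known for the eyelid and ovary, had 6.06, 6.25 and 6.35 in the nasal and 8.03, 8.14 and 8.09 in the maxillary pools (3.64-fold, adjusted p = 2.71e-06), the same direction as *Foxl2os*. *Foxf1*, a mesenchymal target of Hedgehog signaling in the gut and face, had 6.75, 6.90 and 6.51 against 5.04, 4.62 and 4.90 and was 3.65-fold higher in the nasal tissue (adjusted p = 4.42e-06), whereas its relative *Foxf2* had a log2 difference of -0.39 and was called higher in the maxilla. *Foxc1*, *Foxc2* and *Foxd2*, factors of periocular and cranial mesenchyme, were higher in the nasal prominence at 0.75, 0.77 and 0.88.

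The AP-2 genes themselves were compared next. The brightest probe set of *Tfap2a* had 9.14, 9.19 and 9.07 in the nasal and 9.22, 9.13 and 9.11 in the maxillary pools of Neo/Null. The regions overlapped, and the difference was -0.024 (95% interval -0.15 to 0.10, adjusted p = 0.852), and 2 dimmer probe sets gave 0.14 (0.483) and 0.063 (0.652). These probe sets may detect transcripts of the altered alleles, so they do not measure functional *Tfap2a*. *Tfap2b*, which encodes AP-2β, was 1.82-fold higher in the nasal prominence, with 9.96, 9.87 and 9.81 against 9.17, 9.08 and 8.79 (log2 0.87 ± 0.094, adjusted p = 0.000117), and 1.12 in Neo/Wt. *Tfap2c*, which encodes AP-2γ, had 7.14, 6.60 and 6.54 against 7.43, 7.42 and 7.15, higher in the maxilla by 1.49-fold with adjusted p = 0.0273, and this call depended on single pools. It was lost without Neo/Null nasal replicate 2 (adjusted p = 0.0996) or 3 (0.0969), without Neo/Null maxilla replicate 1 (0.0926) or 2 (0.0913), and in a fit of the 6 Neo/Null arrays alone (0.0883), and its other probe sets gave -0.31 (0.0819) and -0.36 (0.0870). *Tfap2d* and *Tfap2e* were called present in neither prominence.

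Among signaling pathways, Fgf genes leaned to the nasal prominence, with 8 of 18 tested genes, out of 25 listed, higher there and 1 in the maxilla (median 0.33). In Neo/Wt the counts were 7 and 1 and the median 0.24. *Fgf17*, a ligand of the Fgf8 subfamily, had 7.26, 7.34 and 7.48 in the nasal and 5.47, 5.78 and 5.39 in the maxillary pools, 3.51-fold higher without overlap (log2 1.81 ± 0.15, adjusted p = 1.56e-05), and a second probe set gave 2.76. *Fgf8*, the ligand of the nasal pit rim and oral ectoderm, had 8.59, 8.51 and 8.45 against 7.84, 7.51 and 7.83, a smaller difference of 1.73-fold (adjusted p = 0.000722). *Fgf15*, called absent in the maxilla, was at least 2.91-fold higher at 5.51, 5.68 and 6.08 against 4.21, 4.15 and 4.30, and *Fgf9* had a log2 difference of 0.99. Of the targets and feedback inhibitors of Fgf signaling, *Etv5* (0.70), *Spry4* (0.63) and *Il17rd* (0.43) were higher in the nasal prominence. Others, *Etv4* (0.65), *Dusp6* (0.22), *Spry1* (0.22) and *Spred2* (0.19), were not called, and each was called higher there only in some alternative settings. *Fgfr2*, the receptor, was the gene of the list that was higher in the maxilla, at 8.42, 8.62 and 8.18 against 9.02, 9.02 and 8.95 (1.51-fold, adjusted p = 0.00382).

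Of 38 tested Wnt genes, out of 49 listed, 11 were higher in the nasal prominence and 1 in the maxilla, with a median of 0.11. *Rspo1*, described above, led the first group and *Rspo3*, another R-spondin, was the single call in the second, with 5.23, 5.10 and 4.41 in the nasal and 6.95, 6.81 and 6.59 in the maxillary pools (3.65-fold, adjusted p = 0.000683). The related secreted activators thus had opposite regions without overlap. *Wnt5a*, a ligand of the non-canonical branch, had 9.30, 9.32 and 8.99 against 7.96, 7.91 and 7.76 (2.51-fold, log2 1.33, adjusted p = 0.000236), with 0.60 to 1.36 for its other probe sets, and its receptor *Ror2* had a log2 difference of 0.56 in the same direction. The R-spondin receptors *Lgr4* (0.83) and *Lgr5* (1.15), the inhibitors *Dkk2* (1.61) and *Dkk3* (0.69) and the receptor *Fzd8* (0.74) were also higher in the nasal tissue. *Axin2*, a target of canonical Wnt signaling, was not called, at 0.14 (95% interval -0.25 to 0.53), nor was *Lef1*, at -0.17 (-0.42 to 0.076).

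**Figure D5:**
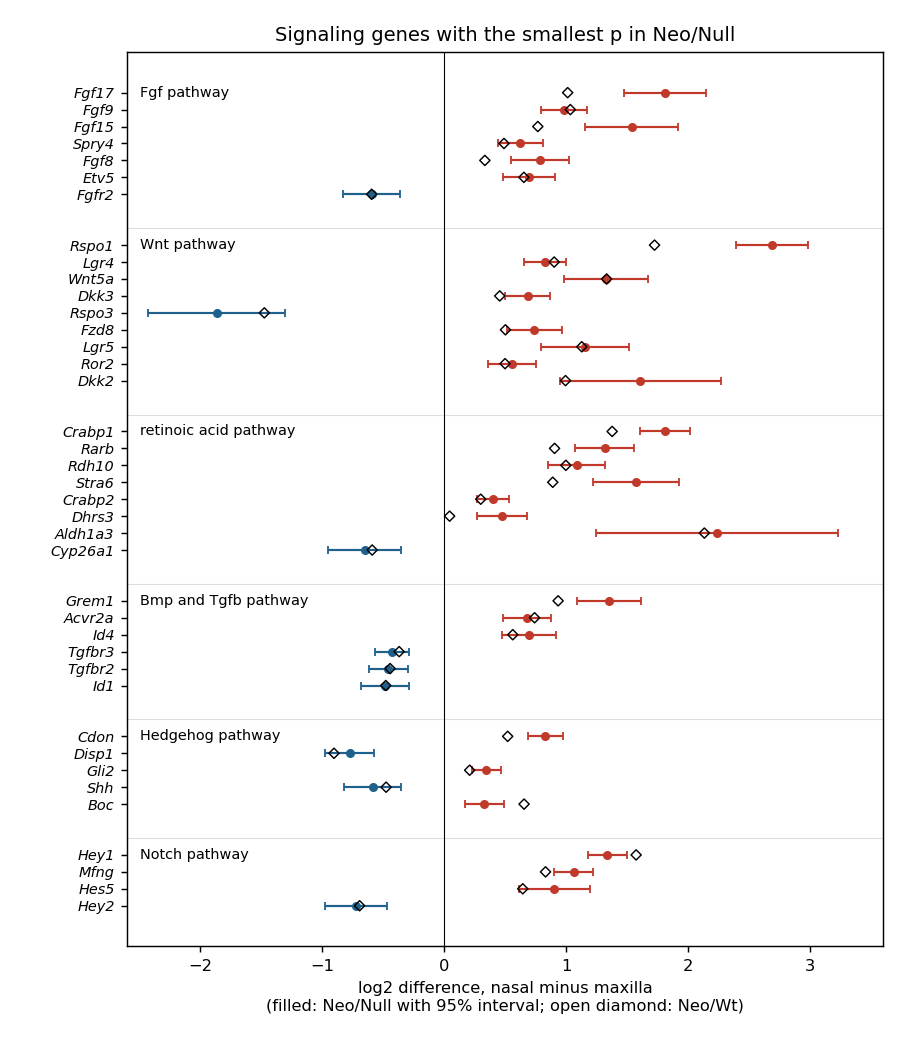
Log2 difference, nasal minus maxilla, of 39 signaling genes in Neo/Null with its 95% interval, and the Neo/Wt difference of each as an open diamond. *Crabp1*, *Fgf17* and *Hey1* lie to the nasal side at 1.81, 1.81 and 1.34, and *Rspo3* to the maxillary side at -1.87.

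Retinoic acid genes leaned to the nasal prominence, with 7 of 14 tested genes, out of 20 listed, higher there, 2 higher in the maxilla and a median of 0.32. In Neo/Wt the counts were 6 and 2 and the median 0.04. *Crabp1*, a cellular binding protein for retinoic acid, was among the brightest genes of the comparison, with 13.53, 13.50 and 13.35 in the nasal and 11.73, 11.71 and 11.51 in the maxillary pools, 3.51-fold higher without overlap (adjusted p = 3.3e-07). *Aldh1a3*, the retinoic acid synthase of the nasal pit and eye, had 10.39 ± 0.14 (SD, n = 3) in the nasal pools and 8.06, 7.52 and 8.88 in the maxillary pools. Its maxillary pools spread widely and stayed below the nasal pools (4.72-fold, adjusted p = 0.00829). *Rarb*, a retinoic acid receptor (1.32), *Rdh10*, which makes retinaldehyde (1.09), and *Stra6*, a receptor for retinol binding protein (1.57), were higher in the nasal tissue, and *Cyp26a1*, which degrades retinoic acid, was higher in the maxilla (-0.65, adjusted p = 0.00968).

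Of 26 tested Bmp and Tgfb genes, out of 39 listed, 8 were higher in the nasal prominence, 4 of these in every alternative setting, and 4 in the maxilla, with a median of 0.20. *Grem1*, a secreted Bmp antagonist, had 6.28, 5.80 and 5.76 in the nasal and 4.70, 4.50 and 4.59 in the maxillary pools (2.56-fold, adjusted p = 2.52e-05). *Id4* (0.70) and *Id1* (-0.49), inhibitors of helix-loop-helix factors downstream of Bmp, were called in opposite directions. The ligand *Bmp4* was not called, at 0.17 (95% interval -0.10 to 0.43). Among 13 tested Hedgehog genes, out of 15 listed, 3 were higher in the nasal prominence and 2 in the maxilla, beside 8.09% and 4.42% of all genes. *Shh*, the ligand of the facial epithelium, had 7.46, 7.49 and 7.12 against 8.05, 7.97 and 7.81 and was 1.5-fold higher in the maxilla (adjusted p = 0.0046), and *Disp1*, needed for ligand release, had -0.78. The coreceptor *Boc* had 0.33, whereas the pathway targets *Ptch1* (-0.054, 95% interval -0.23 to 0.13) and *Gli1* (0.14, -0.16 to 0.43) were not called. *Cdon*, a further coreceptor, had 0.83 with the probe set used and 0.08 (adjusted p = 0.745) with a second, so its probe sets disagreed.

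*Ednrb*, the endothelin receptor of crest derivatives, had 5.25, 5.17 and 4.92 in the nasal and 7.54, 7.77 and 7.38 in the maxillary pools and was 5.45-fold higher in the maxilla (log2 -2.45, adjusted p = 8.5e-07), with -1.71 and -1.00 for its other probe sets. It was 1 of 3 genes of the endothelin and Dlx axis that were higher there, of 7 tested and 12 listed, with its ligand *Edn3* (-0.74) and the transcription factor *Mef2c* (-0.99), and 1 was higher in the nasal tissue. *Hey1*, an effector of Notch signaling, was 2.53-fold higher in the nasal tissue, at 9.28, 9.33 and 9.33 against 7.99, 7.91 and 8.02 (adjusted p = 4.99e-07), and its relative *Hey2* was higher in the maxilla (-0.72). Of 16 tested Notch genes, out of 16 listed, 3 were higher in the nasal prominence and 1 in the maxilla, where all genes gave 8.09% and 4.42%.

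Guidance genes leaned to the maxilla, where 9 of 27 tested genes, out of 31 listed, were higher, 5 of them in every alternative setting, against 2 in the nasal prominence (median -0.24, and 6 against 2 in Neo/Wt). *Nrp1*, the semaphorin and Vegf coreceptor, had 7.27, 7.38 and 7.10 in the nasal and 8.57, 8.90 and 8.49 in the maxillary pools (2.65-fold, adjusted p = 8.8e-06), and 3 further probe sets gave -1.34 to -1.11. *Sema3c* (-1.20), *Sema3e* (-0.73) and *Ntn1* (-0.71), secreted cues, were also higher in the maxilla. *Dcc*, the netrin receptor, was at least 2.5-fold higher in the nasal tissue and *Cxcr4*, a chemokine receptor, 2.25-fold. The summed linear signals of nerve and vessel markers, described below, were higher in the maxilla as well. They were 4110 to 6040 against 2130 to 2460 for neurons and 1920 to 2170 against 1550 to 1690 for endothelium. Of 13 neuron markers, 4 were called higher in the maxilla, 1 in the nasal prominence and 8 not called. Of 10 endothelial markers, 6 were called higher in the maxilla and 4 not called. The part of these tissues in this result was not tested. Of 15 tested ephrins and Eph receptors, out of 19 listed, 1 was called, *Ephb1*, a receptor for B-type ephrins, higher in the nasal prominence (1.03). Over all genes 12.5% were called.

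Matrix genes were divided evenly, with 8 of 28 tested genes, out of 36 listed, higher in each region and a median of -0.04. *Lum*, the proteoglycan lumican, had 9.77, 9.81 and 9.53 in the nasal and 7.35, 7.23 and 7.10 in the maxillary pools (5.56-fold, adjusted p = 3.33e-07), the opposite of *Postn*. *Col14a1*, a fibril-associated collagen, had 5.76, 5.61 and 5.73 against 3.52, 3.52 and 3.55, and *Col1a2*, a chain of type I collagen, had a log2 difference of 1.13 with the probe set used and 0.27 (adjusted p = 0.253) with a dimmer one. *Col9a1*, a cartilage collagen, was higher in the maxilla at -1.31, with *Col6a1* at -0.87. Among 18 tested cadherins and related adhesion genes, out of 23 listed, 3 were higher in each region, among them *Nrcam* (2.19, with 1.03 and, not called, 0.15 for dimmer probe sets, the latter at adjusted p = 0.519) and *Pcdh19* (1.66) in the nasal prominence and *Alcam* (-1.54) and *Cdh11* (-0.50) in the maxilla. Of 20 tested genes linked to orofacial clefts, out of 29 listed, 5 were higher in the nasal prominence and 2, *Trp63* (-0.79) and *Fgfr2*, in the maxilla. *Trp63*, which encodes the p63 factor of surface ectoderm, is also in the epithelial list below.

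Of the genes of the cell cycle, 0 of 20 tested S phase genes and 0 of 19 tested genes of G2 and mitosis were called in either direction, with medians of 0.05 and 0.04. An unadjusted p below 0.05 was found for 3 and 2 of them. Over all genes tested, 12.5% were called.

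The cell types that a pool could hold were compared through their markers, and the part of each in the results above was not tested. The counts of called markers are again to be read beside the 8.09% nasal and 4.42% maxillary calls of all genes. Markers of differentiating neurons were higher in the maxilla in 4 of 13 cases, with a median of -0.52 and a summed linear signal of 4110 to 6040 in the maxillary and 2130 to 2460 in the nasal pools of Neo/Null. Another marker, *Neurog1*, a factor of neuron precursors, was called higher in the nasal prominence (0.81, adjusted p = 0.0316), a call lost without any 1 Neo/Null pool other than maxilla replicate 2 (0.0591 to 0.104). The 4 maxillary calls were *Nefm*, *Gap43*, a growth cone protein (-1.85), and the sensory ganglion factors *Pou4f1* (-1.81) and *Isl1* (-0.72). *Tubb3*, the neuronal tubulin, was not called, at -0.077 (95% interval -1.25 to 1.09). Among the other markers not called were *Nefl* (-2.48), *Dcx* (-1.48) and *Neurod1* (-0.52). They were called higher in the maxilla in a fit of the 6 Neo/Null arrays alone (limma adjusted p = 0.00155, 0.00464 and 0.0329). The same was found without Neo/Wt maxilla replicate 3 (9.1e-05, 0.00132 and 0.0252). A positive difference was found for 2 of the 13 markers. In Neo/Wt the summed signal was 1930 to 4720 in the maxillary pools and 1940 to 2230 in the nasal pools, which overlap, and *Nefm* had 9.15, 8.85 and 6.24 in the Neo/Wt maxillary pools. Markers of glial crest were higher in the maxilla in 3 of 4 tested cases of 7 listed, among them *Sox10* at -1.33, with summed signals of 703 to 892 against 466 to 508.

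Of 12 listed forebrain markers 6 were tested, and all 6 were called higher in the nasal prominence. Their summed signal was 1040 to 1110 in the nasal and 259 to 333 in the maxillary pools. A marker was tested only when called present in a prominence, which favours such a count, and *Six3* entered through the nasal prominence alone. The 6 included *Emx2*, *Lhx2*, *Six3* (at least 3.23-fold), *Otx1* (3.03-fold) and *Dmrta2* (5.67-fold). The call of *Hesx1*, also among them, was lost in some alternative settings (limma adjusted p = 0.0536 to 0.0932). The olfactory epithelium is known to express *Emx2* and *Lhx2* too. Of the other listed forebrain genes, *Emx1*, *Rax* and *Nkx2-1* were called absent in both prominences, and *Fezf2* and *Lhx5* were called present in neither. Among these untested genes, the signals of *Emx1* were higher in the maxillary and those of *Fezf2* in the nasal pools. Among lens and eye markers, 2 of 10 were tested and *Cryab* was higher in the nasal tissue (1.60).

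Markers of cranial crest mesenchyme summed to 15700 to 18500 in the nasal and 11700 to 13100 in the maxillary pools. Of 10 tested genes, 1 was called higher in the nasal prominence and 3, among them *Snai2* (-0.96), higher in the maxilla. The nasal call was *Crabp1*, whose bright signal is a large part of these sums, so they do not give the direction of the other markers. The median log2 difference of the list was -0.15, and 4 of the 10 genes had a positive difference. *Twist1* (-0.22, 95% interval -0.44 to 0.0091) and *Pdgfra* (-0.087, -0.37 to 0.19) were not called. Surface ectoderm markers summed to 7550 to 8920 against 6220 to 7130, with 3 of 13 called in each direction, *Epcam* at 0.80 and *Krt14* at -1.26. Endothelial markers were higher in the maxilla in 6 of 10 cases (summed 1920 to 2170 against 1550 to 1690), and of these only *Tek* (-0.84) kept its call in every alternative setting. Macrophage markers were higher in the maxilla in 5 of 7 tested cases (663 to 708 against 438 to 517), 2 of them in every alternative setting, with *Ptprc* at -0.46. *Csf1r* was -0.70 with the probe set used and -0.36 (adjusted p = 0.0740) and -0.06 (0.767) with others. Erythroid markers were called in neither direction (0 of 7, 1 of them with an unadjusted p below 0.05), with sums of 27500 to 30700 in the maxillary and 30300 to 31900 in the nasal pools. Head muscle and mesoderm markers were higher in the maxilla in 3 of 5 tested cases, with *Tcf21* at least 4.43-fold and *Actc1* 4.87-fold higher in the maxilla. In 1 case, that of *Lhx2*, which is also in the placode and forebrain lists, the marker was higher in the nasal prominence. The sums were 229 to 304 in the maxillary and 164 to 200 in the nasal pools. Of the markers of oral and pharyngeal endoderm or Rathke pouch, 5 of 10 were tested and only *Shh* was called, higher in the maxilla. Of those of the mandibular arch, 2 of 6 were tested and only *Gsc* was called, higher in the nasal prominence.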

How the data were processed

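RNA from the nasal and maxillary prominences of E10.5 Neo/Null and Neo/Wt embryos had been made into biotin-labelled cRNA and hybridized to Affymetrix mouse arrays, with 3 pools in each of 4 groups and 12 arrays in all. Each deposited value is the log2 signal of 1 probe set, between 2.07 and 14.3. The authors processed the scans with the GeneChip Operating Software and scaled all arrays to one target intensity, and the deposited table names MAS signals. How the probes were summarised and when the log was taken is not given in the sources used here. The authors' detection score, deposited for each group of 3 arrays as present, absent or variable, was used as it stands, and the rule that combines 3 arrays is not given either. A further 12 columns that repeat the log2 values were not used. The number of arrays limits the precision.

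The 64 control probe sets were left out. In the platform annotation 34945 probe sets had 1 symbol, 932 had several and 9160 had none. Entrez numbers tied 34741 of those with 1 symbol to a current gene, and 0 symbols changed. The means of the 4 groups were estimated on all 12 arrays in limma 3.58.1 (lmFit and eBayes, R 4.3.3), with 8 residual and 3.36 prior degrees of freedom, and tested on simulated data first. Benjamini-Hochberg adjustment covered the 23732 tested probe sets, with a threshold of 0.05. All 12 arrays share one estimate of the spread, and the paper does not name its own array test.

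Pools that share a number across the prominences of a genotype deviated together. Their correlations across probe sets were 0.23, 0.24 and 0.17 in Neo/Null and 0.19, 0.22 and 0.28 in Neo/Wt, so the numbers were taken to pair the pools and fits with this block were run as alternatives. On the second principal component (10.9% of the variance), the maxillary pools numbered 3 lay at 14.6 and 18.2 and the other maxillary pools at -11.5 to -2.4.

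The comparison, the 32 gene lists (522 genes) and the named genes were chosen with earlier results of these data known. Genes named are the 12 with the largest called difference in each direction without overlap between pools (1 unnamed clone was passed over), up to 6 members of each list, chiefly those with the smallest p, the 5 that ranked first by p for the gap between the contrasts, and the AP-2 genes. Further list members were named after their values had been seen. Alternatives covered the samples fitted, the filter on calls, the scaling, an offset of 32 on the linear signal, the variance model, array weights, the replicate block, the probe set that stands for a gene, and leaving out each array.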

Additional observations from a re-analysis of the deposited data

How the results depend on the processing

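The calls between the Neo/Null prominences stayed within 1.5 times of the values above in most settings, with the following exceptions. Calls of more than 2-fold in the nasal direction fell from 252 to 152 among probe sets called present in both groups, and an offset of 32 on the linear signal, which shrinks the folds of dim probe sets, left 120 nasal and 73 maxillary calls of more than 2-fold. Leaving out single arrays gave 918 to 1579 nasal and 638 to 1113 maxillary calls, with 918 without Neo/Null maxilla replicate 2 and 638 without Neo/Null maxilla replicate 3, and 232 to 270 and 136 to 177 calls of more than 2-fold. It gave 1349 to 2071 calls in Neo/Wt, 1329 to 2007 of them in the same direction in Neo/Null and 1060 to 1271 called there. Array weights gave 3118 calls in Neo/Wt, 2935 of them in the same direction. The cause was not tested. Centring each array on its median gave 1343 nasal and 1323 maxillary calls. For the difference between the contrasts, 1 probe set passed with the offset, 1 with a trended robust prior, 1 with array weights and 0 to 2 without single arrays. With the replicate block, the calls were 1558 and 1282 on 12 arrays, 1221 and 892 on the 6 Neo/Null arrays and 1799 and 1338 as a random effect. Of the genes named in full, the block ended the call of *Rnf225* alone (adjusted p = 0.101 on the 6 arrays). It added *Msx1* and *Msx2*, as given above, and in some of these fits *Nefl*, *Dcx*, *Etv4*, *Dusp6* and *Spred2*. The small difference of *Tfap2a* ranged from -0.053 to 0.0092 without single arrays, and was above 0 without Neo/Null nasal replicate 3 (0.0087) or maxilla replicate 1 (0.0092). Without single arrays, 80 to 96 listed genes were nasal calls and 66 to 84 maxillary calls. Of the list counts in other settings, 1445 stayed within 1.5 times of the main count and 105 did not.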
